A study of Mus musculus with 12 samples.

Results

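Aldh1l1, Itga7 and Gdpd2 are 3 genes used as astrocyte genes, and they were taken by symbol from a hippocampal nCounter panel of 770 genes. They were chosen by their normalized counts in these same mice, with earlier results known: the genotype differences and their change with sex singled out Itga7 and Gdpd2. Those differences are therefore given as a description, with standard errors and no test. Tests are given for sex, for the way the genes moved together among mice of one group, and for genes other than these 3. All 3 exceeded the table's floor of 20 in all 12 mice, so the filter on low values removed none of them.

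The mice fell into 4 groups of 3: mtOGG1 females, control females, mtOGG1 males and control males. All had the C57BL6/J background and were 13 months old. The mtOGG1 genotype is, by the series title, expression in mitochondria of OGG1, a glycosylase that removes oxidised guanine from DNA. The promoter of the transgene, the cells that carry it and the genetic makeup of the control mice beyond the word control are not given in the sources used here. The labels number the mice within a group and do not say which were littermates.

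Astrocytes are the glia that take up glutamate and potassium around synapses, couple to each other through gap junctions and cover blood vessels with their end-feet. Aldh1l1 encodes a formyltetrahydrofolate dehydrogenase of folate metabolism and is widely used to mark astrocytes across brain regions. Itga7 encodes an integrin alpha subunit, which pairs with a beta subunit into a laminin receptor and is best known from skeletal muscle. Gdpd2, also called Gde3, encodes a membrane enzyme of the glycerophosphodiester phosphodiesterase family. In bulk tissue, fewer cells of a type and less RNA per cell cannot be told apart.

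All 3 symbols matched the current RefSeq gene table, and promoter windows were at hand for 2 of them, Aldh1l1 and Gdpd2. No window was at hand for Itga7, so these are the only ones shown, as a description. Of the 3 pairs, these genes also had the highest within-group correlation, which did not pass after adjustment (described below). Each window runs from 250 bases before to 50 after a RefSeq start site, on the plus strand of mouse build GRCm38.p6. Capitals mark matches on either strand to 5 motifs, which are the TATA box TATAAA, the GC box GGGCGG, the CCAAT box, the motif TTCNNNGAA bound by STAT factors and the motif TGANTCA bound by AP-1. No match overlapped another.
Aldh1l1, chr6:90550543-90550842: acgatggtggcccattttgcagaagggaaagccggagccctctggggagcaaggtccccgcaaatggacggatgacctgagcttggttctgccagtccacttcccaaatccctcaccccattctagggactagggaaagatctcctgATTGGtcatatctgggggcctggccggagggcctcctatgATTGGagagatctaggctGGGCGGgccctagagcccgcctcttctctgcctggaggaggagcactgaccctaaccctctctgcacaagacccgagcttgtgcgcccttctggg
Gdpd2, chrX:100729597-100729896: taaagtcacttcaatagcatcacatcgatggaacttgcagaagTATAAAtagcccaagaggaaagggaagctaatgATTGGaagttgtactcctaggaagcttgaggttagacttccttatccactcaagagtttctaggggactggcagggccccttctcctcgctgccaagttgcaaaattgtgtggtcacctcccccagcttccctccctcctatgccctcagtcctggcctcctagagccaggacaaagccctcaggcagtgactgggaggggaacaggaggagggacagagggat
The Aldh1l1 window held CCAAT on the opposite strand at bases 148 and 188, and GGGCGG at base 206. Counted from the start site these lay at -103, -63 and -45. The Gdpd2 window held TATAAA at base 44 and CCAAT on the opposite strand at base 77. Counted from the start site these lay at -207 and -174. Both thus held CCAAT, which 37.4% of all 32851 windows of this length held on either strand. TATAAA was present in 13.6% of windows and GGGCGG in 35.7%. Neither window matched TTCNNNGAA or TGANTCA, which 8.30% and 7.81% of windows held. A second annotated Gdpd2 start site had a window at chrX:100729936-100730235 with no match to any of the 5 motifs. GC content was 60.0% in the Aldh1l1 window and 52.0% in the Gdpd2 window shown.

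Depth varied among the mice. Each mouse had between 281838 and 418467 whole counts over the genes above the floor. The range was 281838 to 358969 in females and 320862 to 418467 in males. Negative controls reached at most 14 counts. Levels below are normalized counts, that is, whole counts times 1 factor per mouse. Differences are on the scale log2(normalized count + 1), which slightly understates the change of low genes. The counts behind Aldh1l1 ranged from 323 to 536 per mouse, those behind Itga7 from 35 to 86 and those behind Gdpd2 from 31 to 83.

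Aldh1l1 varied little among the groups. It stood at 381, 367 and 419 normalized counts in mtOGG1 females, against 421, 373 and 424 in control females. It stood at 431, 393 and 471 in mtOGG1 males, against 352, 494 and 346 in control males. The 4 ranges overlapped, and control male 2 was the highest of the 12 mice while the other 2 control males were the lowest. The group means were 432 ± 38.5 in mtOGG1 males, 406 ± 28.9 in control females, 397 ± 83.9 in control males and 389 ± 26.4 in mtOGG1 females (SD, n = 3 each). No neighbours in that order differed beyond their SDs. The log2 difference of mtOGG1 from control mice over both sexes was 0.04 with a standard error of 0.10. In males it was 0.13, or 0.30 without control male 2, and in females -0.06. The sign over both sexes was not stable. Relative to the mean of 4 astrocyte markers (Slc1a3, Gja1, S100b and Sox9) the value was -0.06, where the median of all genes was -0.10. With median centring it was 0.03 and with panel reference genes 0.08. It was -0.07 with Slc17a6 and -0.02 with Ttr as a covariate, and -0.04 in the mice with Slc17a6 under 1000. It also turned negative without control male 1 or control male 3.

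**Figure D1:**
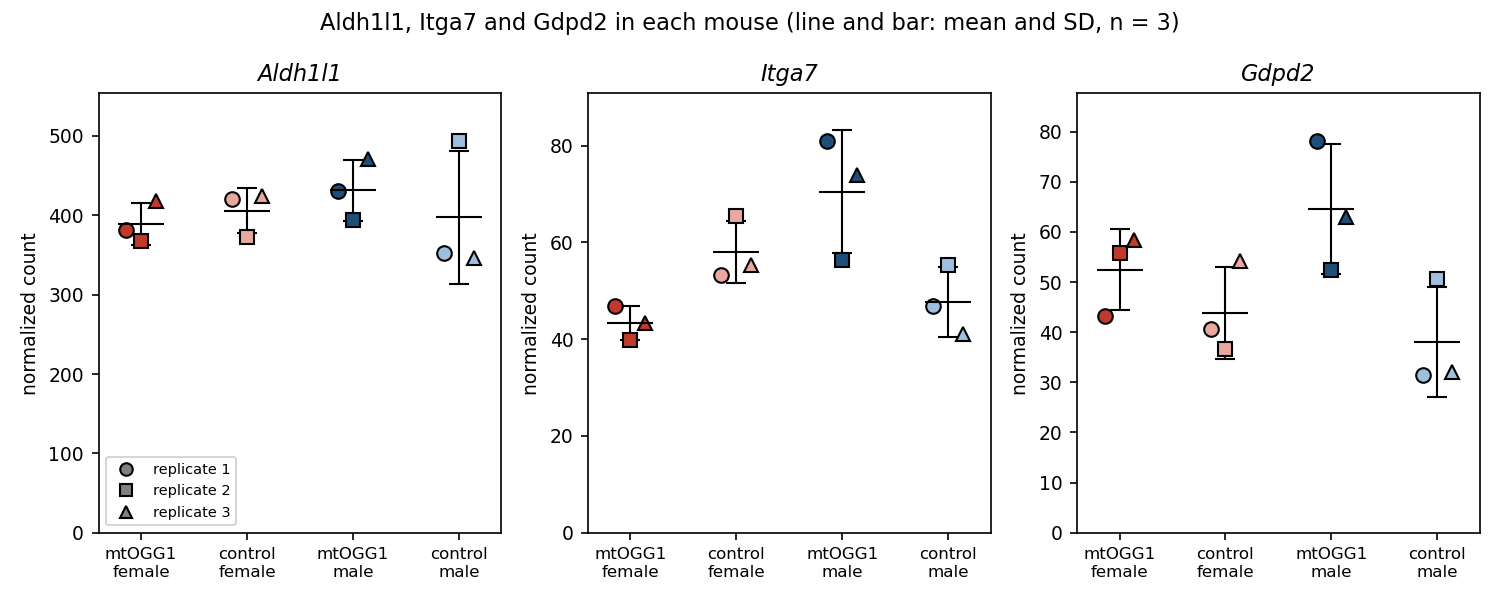
Normalized counts (vertical axes, starting at 0) of Aldh1l1, Itga7 and Gdpd2 in each of the 12 mice, by genotype and sex. Symbols are mice, shaped by replicate number; the lines and bars are the mean and SD of 3 mice. The mtOGG1 mice lie below the control mice for Itga7 in females, above them for Itga7 and Gdpd2 in males, and among them for Aldh1l1.

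Itga7 differed between the genotypes in opposite directions in the sexes. It stood at 46.8, 39.8 and 43.4 normalized counts in mtOGG1 females, against 53.3, 65.4 and 55.4 in control females. It stood at 81.1, 56.4 and 74.0 in mtOGG1 males, against 46.8, 55.3 and 41.0 in control males. Every mtOGG1 female lay below every control female, and every mtOGG1 male above every control male, although mtOGG1 male 2, at 56.4, exceeded control male 2, at 55.3, by less than the counting error. The order of the group means was mtOGG1 males at 70.5 ± 12.7, control females at 58.0 ± 6.48, control males at 47.7 ± 7.20 and mtOGG1 females at 43.3 ± 3.50 (SD, n = 3 each). Ranges overlapped between each pair of neighbours in that order.

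The log2 difference of mtOGG1 from control mice in Itga7 was -0.41 in females (standard error 0.17, 0.75 of the control level) and 0.55 in males (standard error 0.17, 1.46 times the control level). The difference in females minus that in males was -0.96 with a standard error of 0.24. Over both sexes the opposite values left 0.07 with a standard error of 0.12. Among the 608 genes above the floor in at least 3 mice, 3.45% lay wholly lower and 1.81% wholly higher in mtOGG1 females than in control females, and 5.76% lay wholly higher and 12% wholly lower in mtOGG1 males than in control males. Itga7 was the only gene that did both, which is 0.164% of the genes. Since such contrasts chose the gene, nothing is read from these shares.

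The coefficient of variation of Itga7 was 8.08% among mtOGG1 females, 11.2% among control females, 18.1% among mtOGG1 males and 15.1% among control males. Counting error alone, taken as Poisson, gives 15.7%, 13.8%, 11.6% and 13.9% in the same groups. The spread lay below the counting error in both female groups and above it in both male groups. An SD of 3 mice that lies below the counting error understates how far a repeat could differ.

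Values of other cell types are given beside those of Itga7. The 11 measured oligodendrocyte markers (of 15 listed, none at the floor) summed to between 16926 and 24187 normalized counts in mtOGG1 males and between 12551 and 17251 in control males. In females the sums were 17535 to 23276 in mtOGG1 mice and 17358 to 23365 in control mice. The female minus male value of the genotype difference was negative for all 11, with a median of -0.50, against 0.03 over all 608 genes. None of the 11 passed the test of that value (limma, smallest adjusted p = 0.604; 3 had an unadjusted p under 0.05, as had 4.77% of all genes). In males 1 of the 11, Opalin, was called higher in mtOGG1 mice (limma, adjusted p = 0.0155), as were 0.164% of all genes. There 6 of the 11 had an unadjusted p under 0.05, against 13.3% of all genes. Opalin was also called higher in females than in males (limma, adjusted p = 0.0207), as were 0.329% of all genes. In females 9 of the 11 had positive and 2 negative differences, with a median of 0.02, while that of Itga7 was -0.41. The lowest of the 11 was also -0.41. In females 1 had an unadjusted p under 0.05 (limma), as had 2.96% of all genes, and Enpp6 came first by p. The 7 measured endothelial and pericyte markers (of 10) ran the other way in males, with sums of 662 to 758 in mtOGG1 and 873 to 986 in control males, against 704 to 866 in mtOGG1 and 712 to 918 in control females. Of these 7, Ly6a was called lower in mtOGG1 males (limma, adjusted p = 0.0253), as were 0.822% of all genes. It was also called lower over both sexes (limma, adjusted p = 0.0486), as were 1.15% of all genes. Markers of vascular smooth muscle, which carries integrin alpha 7 on its surface, were not analysed here. Slc17a6, a vesicular glutamate transporter of neurons below the cortex, had a log2 difference of 0.75 in females, opposite in sign to Itga7, and of 1.37 in males, without passing (limma, adjusted p = 1 and 0.372). In the 8 mice with Slc17a6 under 1000, which leave mtOGG1 male 2 as the only mtOGG1 male, the Itga7 value was -0.44 in females and 0.25 in males. The part of these genes in the Itga7 values was not tested.

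Gdpd2 had higher values in mtOGG1 mice, with the wider gap in males. It stood at 43.3, 55.7 and 58.5 normalized counts in mtOGG1 females, against 40.6, 36.7 and 54.3 in control females. It stood at 78.2, 52.4 and 63.0 in mtOGG1 males, against 31.5, 50.7 and 32.0 in control males. The males did not overlap, although mtOGG1 male 2, at 52.4, and control male 2, at 50.7, differed by less than the counting error. Among females mtOGG1 female 1 lay below control female 3. As a group, mtOGG1 males averaged 64.6 ± 13.0, mtOGG1 females 52.5 ± 8.08, control females 43.9 ± 9.25 and control males 38.1 ± 10.9 (SD, n = 3 each). In this order each pair of neighbouring groups overlapped.

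The log2 difference of mtOGG1 from control mice in Gdpd2 was 0.51 over both sexes (standard error 0.16, 1.43 times the control level). It was 0.26 in females and 0.76 in males (standard error 0.22 each), and the female value minus the male value was -0.50 with a standard error of 0.31. Wholly higher values in mtOGG1 males than in control males were found for 5.76% of genes, as given above, and nothing is read from Gdpd2 being among them. Counting error was 14.2% in mtOGG1 females, 16.0% in control females, 12.1% in mtOGG1 males and 15.5% in control males, against coefficients of variation of 15.4%, 21.1%, 20.1% and 28.7%. As a share of Aldh1l1 in the same mouse, a measure free of the scaling factor, Gdpd2 was 11.4%, 15.2% and 13.96% in mtOGG1 females, against 9.64%, 9.84% and 12.8% in control females. In males it was 18.2%, 13.3% and 13.4% in mtOGG1 mice, against 8.96%, 10.3% and 9.24% in control mice. This ratio of counts from different probes is not a ratio of transcript numbers.

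Slc17a6 is given here beside Gdpd2. It stood at 515, 618 and 1374 normalized counts in mtOGG1 females, against 195, 391.6 and 1208 in control females, and at 1597, 403 and 1229.8 in mtOGG1 males, against 222, 726 and 286 in control males. The highest Gdpd2 value of each group lay in the mouse with the highest Slc17a6 of that group. With Slc17a6 as a covariate the Gdpd2 difference was 0.25 over both sexes (standard error 0.14), 0.08 in females and 0.42 in males. In the 8 mice with Slc17a6 under 1000 it was 0.41 over both sexes (standard error 0.19), with mtOGG1 male 2 standing alone for its group and assumed to vary like the others. That mouse had 52.4 normalized counts of Gdpd2 at 403 of Slc17a6, while control male 2 had 50.7 at 726. Those Gdpd2 values rest on 53 and 55 whole counts and differed by less than the counting error. Slc17a6 itself had a log2 difference of 1.06 over both sexes (limma, adjusted p = 0.401).

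**Figure D2:**
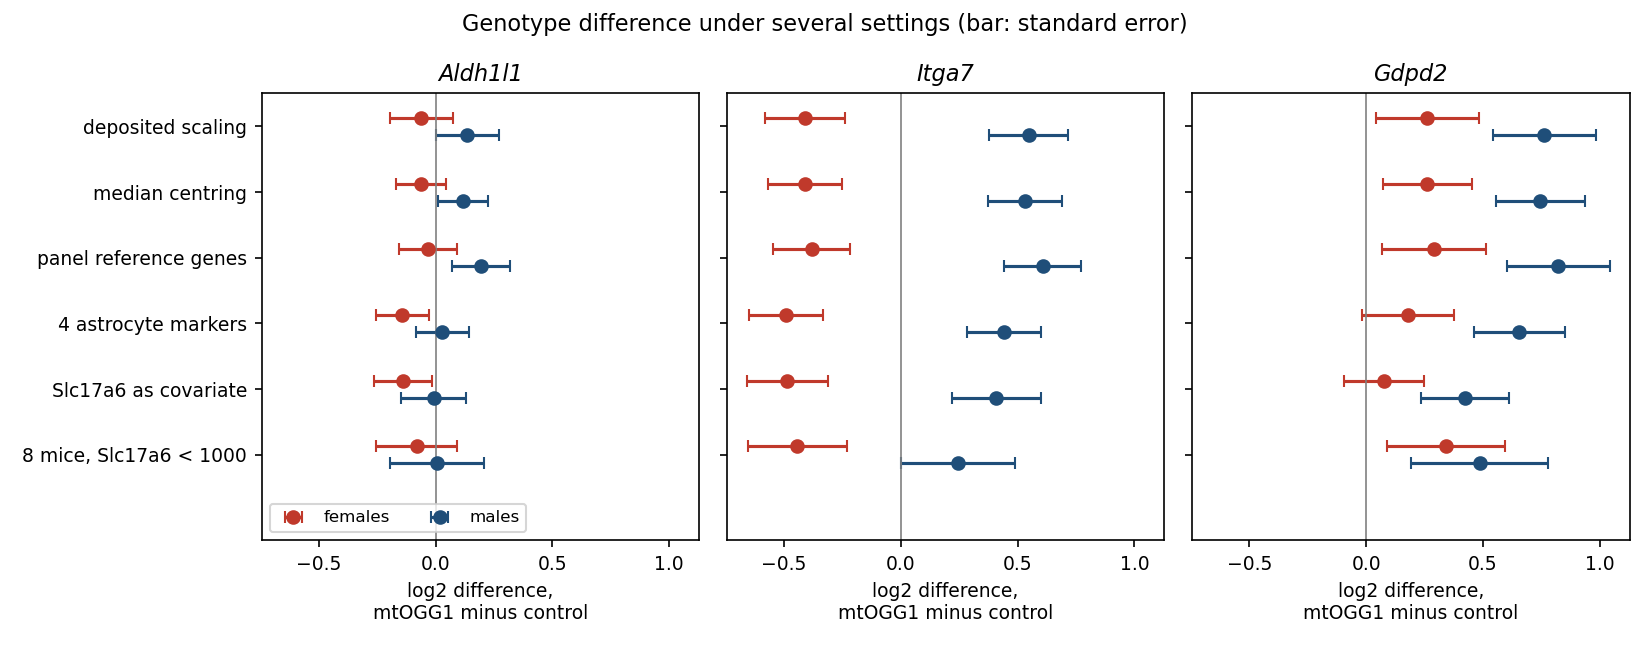
Log2 difference of mtOGG1 from control mice (horizontal axes) in females and males for Aldh1l1, Itga7 and Gdpd2, with the deposited scaling, 3 other scalings, Slc17a6 as a covariate, and the 8 mice with Slc17a6 under 1000. Points are fitted values and bars their standard errors; the Gdpd2 value in males is 0.76 with the deposited scaling and 0.42 with Slc17a6 as a covariate, and Itga7 keeps opposite signs in the sexes in each setting drawn.

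Whether the 3 genes differed with sex was tested in the fit over all 608 genes, in which 4 genes, or 0.658%, passed an adjusted p of 0.05 (0.329% higher and 0.329% lower in females). None of the 3 passed, at that threshold or at an unadjusted p of 0.05. Over all 608 genes the median difference of females from males was 0.04, with 66.8% positive. With median centring of each mouse Aldh1l1, Itga7 and Gdpd2 had -0.08, -0.23 and -0.07, without passing (limma, adjusted p = 0.938, 0.684 and 0.983). Aldh1l1 averaged 398 ± 26.4 in females and 414 ± 61.3 in males (SD, n = 6 each), with a log2 difference of females from males of -0.05 and a 95% interval from -0.25 to 0.15 (limma, adjusted p = 0.974). Itga7 averaged 50.7 ± 9.31 in females and 59.1 ± 15.5 in males, with a difference of -0.20 and an interval from -0.45 to 0.06 (limma, adjusted p = 0.837). That value averages opposite signs, since Itga7 was at 43.3 in females and 70.5 in males among mtOGG1 mice, against 58.0 in females and 47.7 in males among controls. Gdpd2, the X-linked one among them, averaged 48.2 ± 9.10 in females and 51.3 ± 18.0 in males, with a difference of -0.04 and an interval from -0.37 to 0.30 (limma, adjusted p = 0.991). The signs for Aldh1l1 and Gdpd2 turned positive with the choroid plexus gene Ttr as a covariate.

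How the genes moved together was measured on the deviation of each mouse from its group mean, which does not use the genotype and sex differences. The family held 12 relations, each tested with an exact permutation (two-sided) of the mice inside their groups. Aldh1l1 and Gdpd2 had r = 0.75 (n = 12, exact permutation p = 0.0401, adjusted p = 0.187) and rho = 0.71 (exact permutation p = 0.0340, adjusted p = 0.204). Without control female 3 and control male 2, the 2 mice farthest from the median Gdpd2 deviation, r was 0.46 (exact permutation p = 0.375 over 144 orders). Leaving out the most extreme mice narrows the range and leaves few orders, so this value cannot tell whether the relation holds without them. Leaving out control male 2 alone gave 0.53, and leaving out control female 3 alone gave 0.78. Aldh1l1 and Itga7 had r = 0.51 (exact permutation p = 0.211, adjusted p = 0.281) and rho = 0.52 (exact permutation p = 0.199). Gdpd2 and Itga7 had r = 0.42 (exact permutation p = 0.285, adjusted p = 0.342) and rho = 0.36 (exact permutation p = 0.352). Both of the last values turned negative, to -0.44 and -0.40, without control male 2 and mtOGG1 male 2. No pair passed after adjustment. With median centring of each mouse r was 0.58 for Aldh1l1 and Gdpd2. It was 0.38 for Aldh1l1 and Itga7 and 0.20 for Gdpd2 and Itga7.

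Gdpd2 and Slc17a6 had the highest value of the family, r = 0.85 (n = 12, exact permutation p = 0.00694, adjusted p = 0.0833) and rho = 0.80 (exact permutation p = 0.0154, adjusted p = 0.185), without passing after adjustment. It was 0.72 without control female 3 and control male 2 (exact permutation p = 0.153). Within 7 of the mice with Slc17a6 under 1000, leaving out the lone mtOGG1 male, it was 0.73 (exact permutation p = 0.208 over 24 orders). With panel reference genes as the scaling it was 0.90 and passed (exact permutation, adjusted p = 0.0278), as it did in the deposited scaling without control female 1 or control female 2. In the other 16 of 19 alternative settings it did not pass. Slc17a6 had r = 0.63 with Aldh1l1 (exact permutation p = 0.0517, adjusted p = 0.187) and r = 0.53 with Itga7 (exact permutation p = 0.137, adjusted p = 0.206). The sample median of all genes, a measure of what scaling left, had r = 0.67 with Aldh1l1, 0.67 with Gdpd2 and 0.30 with Itga7 (exact permutation, adjusted p = 0.206, 0.187 and 0.455). Ttr values ran from 20 to 66.4 and from 826 to 1525 normalized counts, with control male 3 between them at 336. All mtOGG1 males lay in the upper range. With values split in this way, the relations of Ttr to the 3 genes are not read.

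**Figure D3:**
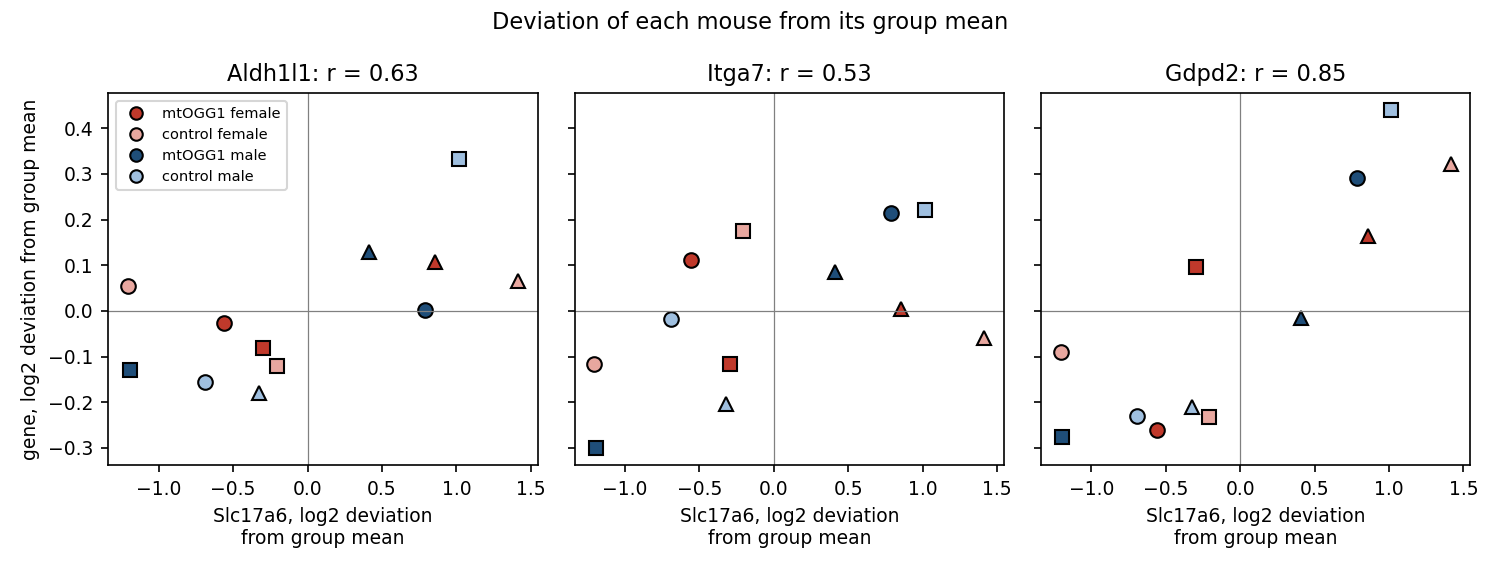
Log2 deviation of each mouse from its group mean in Aldh1l1, Itga7 and Gdpd2 (vertical axes) against that in Slc17a6 (horizontal axes), coloured by group and shaped by replicate number as in the plot of normalized counts. Pearson's r over the 12 mice is 0.63 for Aldh1l1, 0.53 for Itga7 and 0.85 for Gdpd2.

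The genes most alike in these deviations were ranked among 536 others above the floor in all 12 mice, as a description. For Aldh1l1 they were the interferon receptor gene Ifnar2 (r = 0.95), Dock1, an activator of Rac (r = 0.93), and Gja1, the gap junction protein connexin 43 of astrocytes (r = 0.89). These 3 held the same places after median centring of each mouse, at 0.90, 0.87 and 0.81. For Itga7 they were Enpp6, a choline phosphodiesterase of newly forming oligodendrocytes (r = 0.89), the fatty acid binding protein gene Fabp5 (r = 0.89) and Il1rap, an interleukin receptor subunit (r = 0.89). Gja1 stood at place 134 for Itga7, with r = 0.35, and Aldh1l1 at place 69. For Gdpd2 they were Arhgap24 (r = 0.93), the anticoagulant protein S gene Pros1 (r = 0.93) and Amigo2 (r = 0.90). After median centring Amigo2 and Arhgap24 held the first places, and Pros1 stood at place 12, with r = 0.80. Agt, the angiotensinogen gene of astrocytes, followed at place 4 with r = 0.90, and Slc17a6 at place 14. All points share the tissue piece, the depth and the scaling of each mouse.

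The label astrocyte was set against the markers listed for that cell type. Of 9 such markers 5 were measured (Aldh1l1, Slc1a3, Gja1, S100b and Sox9), and none was at the floor in any mouse. The others were not analysed here. Their summed level ran from 6849 to 7634 normalized counts in mtOGG1 females, 6503 to 7160 in control females, 7249 to 7424 in mtOGG1 males and 6260 to 7621 in control males. Bulk values cannot assign Itga7 or Gdpd2 to a cell type.

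The wider astrocyte list held 36 genes, of which 8 were measured beside the 3. None passed the limma test over both sexes, in females, in males, for the difference between the sexes or for sex, where 1.32%, 0%, 0.987%, 0% and 0.658% of the 608 genes passed. Of those shares, 0.164% were higher and 1.15% lower over both sexes, and 0.164% higher and 0.822% lower in males. At an unadjusted p of 0.05 the counts were 2, 0, 1, 0 and 1 of the 8, where 11.7%, 2.96%, 13.3%, 4.77% and 6.41% of all genes passed. Over both sexes 7 of the 8 had positive values, with a median log2 difference of 0.18, against 47.5% positive and a median of -0.0086 over all genes. In females 8 of 8 were positive with a median of 0.11, against 48.2% and -0.0054 over all genes. In males 6 of 8 were positive with a median of 0.25, against 45.1% and -0.02 over all genes. Slc1a3, the glutamate transporter GLAST, and Sox9, a transcription factor of astrocytes, were near 0, at 0.01 and -0.00273. Gja1 had 0.18, the calcium-binding protein gene S100b 0.19, the lipid carrier Apoe 0.16, the growth factor receptor Egfr 0.27 and the potassium channel Kcnj10 0.28. Agt, the highest of the 8, had 1.07 (standard error 0.46; limma, adjusted p = 0.401).

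**Figure D4:**
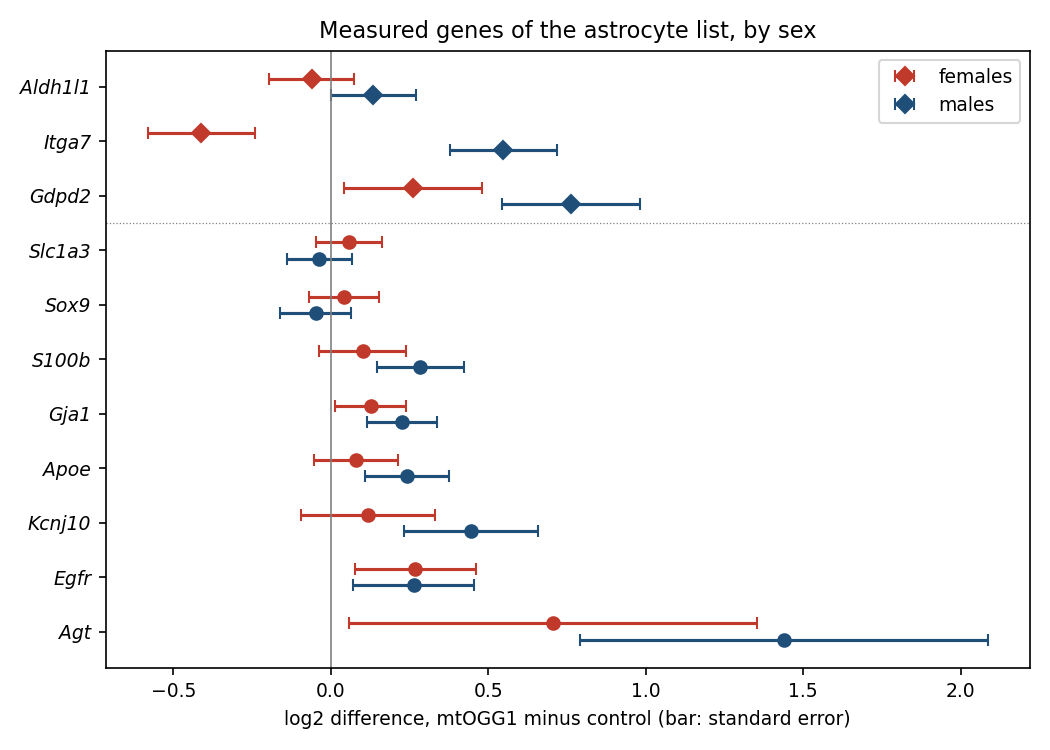
Log2 difference of mtOGG1 from control mice (horizontal axis) in females and males for Aldh1l1, Itga7 and Gdpd2 (diamonds, above the dotted line) and the 8 other measured genes of the astrocyte list (circles). Bars are standard errors; Agt has the highest values, at 0.71 in females and 1.44 in males, and the widest bars.

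Lists close to the 3 genes by function held few measured genes. Of the integrin and laminin list, the relatives of Itga7, 5 of 32 genes were measured and Itgax was at the floor in all mice. None of the 4 tested passed in any of the 5 contrasts (limma), with Itgav at -0.22, Itga6 at 0.08 and Itgam at 0.06 over both sexes, and 1 had an unadjusted p under 0.05 over both sexes, as had 11.7% of all genes. In males Itgav had -0.38 (limma, adjusted p = 0.205), opposite in sign to Itga7 there. Of the phosphodiester and phospholipid list, relatives of Gdpd2 in lipid turnover, 6 of 15 genes were measured and none passed in any contrast (limma; none had an unadjusted p under 0.05). Their median over both sexes was 0.05, with Inpp5d at 0.16, Pld1 at 0.16 and Pla2g4a at -0.08. Folate enzymes beside Aldh1l1 were not analysed here.

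Genes of reactive astrocytes are those that the cells raise after injury or inflammation. The 8 tested genes shared by all reactive states had 3 positive and 5 negative differences over both sexes, with a median of -0.08. In males 4 were positive and 4 negative, with a median of -0.0055, and Serpina3n had 0.78 (limma, adjusted p = 0.232). Of the 8, only Lcn2, the secreted protein lipocalin 2, was called. It was called lower over both sexes and in males, as were 1.15% and 0.822% of all genes. It was listed at the floor of 20 in all 3 mtOGG1 females, against 20, 29.7 and 20 normalized counts in control females, and at 20.7, 20 and 20.1 in mtOGG1 males, against 62.1, 72.8 and 37.7 in control males. The males did not overlap, as was so for the 12% of all genes that lay wholly lower in mtOGG1 males. For Lcn2, 4 of 6 mtOGG1 mice were at the floor, and the gene passed the filter mainly through the control males. Its fitted differences, -0.80 over both sexes (limma, adjusted p = 0.0164) and -1.41 in males (limma, adjusted p = 0.00216), therefore rest on floored values and are no exact sizes. Without the filter 0 genes were called in these contrasts, and a filter that asks for values above 20 in all mice removes Lcn2. None passed among 9 genes of the A1 and 6 of the A2 class over both sexes (limma; 2 in each class had an unadjusted p under 0.05, as had 11.7% of all genes), with medians of -0.09 and -0.11. These values differ in sign from that of Gdpd2, whose difference from them was not tested. The A1 gene Amigo2, among the genes most alike to Gdpd2, had 0.26 over both sexes (limma, adjusted p = 0.674).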

How the data were processed

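Hippocampal RNA from 12 mice was hybridised to an nCounter panel, per the labels' protocols. The deposited signal values are counts that the authors normalized; the design text names the nCounter Advanced Analysis Suite. A gene's value above 20 was a whole count times a factor for its mouse (within 0.01 for 100% of values; factors 0.82 to 1.27); lower values had been set to 20. No source used here tells how those factors were set. Sample medians differed by up to 0.26 (log2).

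Values were taken as log2(value + 1) for the 608 genes above 20 in at least 3 mice. The fit used limma 3.58.1 (R 4.3.3), 1 mean for each group, trended variances and Benjamini-Hochberg adjustment over all 608 genes at 0.05, in 5 contrasts. Count models were not used because the floor leaves no complete counts. Members and gene lists were chosen with earlier results of these data known. Named are the 3 members, measured genes of the astrocyte list, up to 3 genes by p of each related list, and the 3 genes most alike to each member; Agt and the places of further genes were named after their values were seen. Promoters came from RefSeq (GRCm38.p6); no build is named for the panel's probes. Nothing says that the mice came from separate litters, so p-values measure the spread between these samples. Replicates of a group differed by at least 2.47 in chi-square per degree of freedom. Scripts were tested on simulated data. Alternatives covered pseudocount, filter, scaling, variances, covariates, block and left-out mice. Scaling to 4 astrocyte markers and the 8 mice with low Slc17a6 were added after seeing the data. Figures used matplotlib 3.10.9.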

Additional observations from a re-analysis of the deposited data

Results flagged for a closer look

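Itga7 was picked out because its genotype difference ran in opposite directions in the sexes without overlap of the mice: each mtOGG1 female lay below each control female, and each mtOGG1 male above each control male. The female minus male value of that difference was -0.96 on the log2 scale. This difference was not tested here, because it helped to choose the gene. No mouse of the mtOGG1, control, female or male sets of 6 stood apart from the others in Aldh1l1, Itga7 or Gdpd2 by Dixon's criterion at 0.625, in 12 sets checked.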

How the results depend on the processing

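The genotype values of Itga7 in females and in males, of Gdpd2 in either sex and over both, and the differences between the sexes of all 3 genes kept their sign under all 25 alternatives. Much of this was fixed in advance. Changes of filter, variances or block left the fitted values as they were. For Itga7 in each sex and Gdpd2 in males, the mice did not overlap, so leaving out 1 mouse could not turn the sign. The count of 25 is therefore no measure of how firm the signs are. The Aldh1l1 value over both sexes kept it in 19 and that of Itga7 in 22. Values that moved by more than the spread between replicates were Gdpd2 in males with Slc17a6 as a covariate (0.42), the Itga7 difference between the sexes at a pseudocount of 20 (-0.71) and, in the 8 mice with Slc17a6 under 1000, Itga7 in males (0.25) and the differences between the sexes of Itga7 (-0.69) and Gdpd2 (-0.14). In sex, the sign turned for Aldh1l1 (0.047) and Gdpd2 (0.16) with Ttr as a covariate, and with 1 mouse left out that of Aldh1l1 ranged from -0.094 to 0.034 (the upper end without control male 2) and that of Gdpd2 from -0.12 to 0.074 (above 0 without mtOGG1 female 1, mtOGG1 male 1, control female 2 or control male 2); none passed the test.

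The 8 genes called over both sexes became 5 at a pseudocount of 5 and of 20 and above 20 in all mice, 0 without a filter and 2 in the mice with low Slc17a6, and 3 to 12 with 1 mouse left out (3 without mtOGG1 female 3 or control male 2, 4 without control female 1, control male 1 or 3, 5 without mtOGG1 female 2 or mtOGG1 male 3). The 6 in males became 0 without a filter or in the mice with low Slc17a6, 12 with median centring or no variance trend, 11 with panel reference genes or robust variances and 14 with the 4 astrocyte markers, and 4 to 19 with 1 mouse left out (19 without mtOGG1 female 3, 14 without mtOGG1 male 2, 10 without mtOGG1 female 1 or control female 2). The 4 for sex became 2 without a filter, above 20 in all mice, with panel reference genes and in the mice with low Slc17a6, and 2 to 5 with 1 mouse left out (2 without mtOGG1 female 1 or 2 or control male 1). The 0 in females became 1 with Ttr as a covariate and 0 to 2 with 1 mouse left out (2 without control female 3), and the 0 for the difference between the sexes 0 to 1 (1 without control male 3). Of the 8 other astrocyte genes none was called under any alternative. Removing the filter adds genes that sit at the floor; otherwise the cause was not tested.

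The correlation of Gdpd2 with Slc17a6 passed with panel reference genes (0.90) and without control female 1 or 2, but not in the other 16 of 19 alternatives. It ranged from 0.80 to 0.92 with 1 mouse left out. Those of Itga7 turned negative without the 2 farthest mice for Aldh1l1 (-0.44) and Gdpd2 (-0.40). Those of Itga7 with Ttr turned to -0.13 with median centring, -0.26 with the 4 markers, and ranged from -0.14 to 0.258 with 1 mouse left out. With the sample median they turned to -0.15 and -0.11 in these scalings and ranged from -0.0104 to 0.606. Deviations of same-numbered mice had r from -0.34 to 0.56 over 6 pairs. The values were 0.35, -0.11 and 0.56 in females and -0.05, -0.34 and -0.10 in males. Not all mice correlated best with their own number. Deviations within groups of 3 are too few to tell whether equal numbers mark a pairing. With the replicate block Gdpd2 over both sexes stayed at 0.51 (standard error 0.16). The calls with it became 7 over both sexes, 8 in males and 4 for sex. Counts of 31 to 86 limit the precision for Itga7 and Gdpd2.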
